A study of Mus musculus with 4 samples.

Results

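The 1-Mb window of chromosome 7 that holds Dkk3 had more Gata6 peaks than any other such window on a fixed grid in a ChIP-seq peak list from mouse keratinocytes, and it is described here peak by peak. It runs from chr7:119000001-120000000 on build mm9. Of the listed peaks, 39 had their midpoint in it and 12098 lay elsewhere. Of the 39, 5 lay in the interval taken for Dkk3, from 119260001 to 119300000, and 34 lay in the rest of the window. The window was chosen by its number of peaks and by a close group of 5 of them. Counts and positions are therefore given as a description, without a test.

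The cells were primary keratinocytes from mouse dorsal skin on a C57BL6/CBA background. They carried K14deltaNLef1, a transgene in which the keratin 14 promoter of basal epidermal cells drives Lef1 without its N-terminus, and they had been infected with a lentivirus for overexpression of Gata6. The genotype of 1 Gata6 library is written K14deltaNLef1N and was read as the same. The protocol names truncated Lef1, not Gata6, as the protein pulled down, and the antibody labels were followed here. Chromatin was precipitated in 2 Gata6 libraries with antibodies from different makers, and in 1 Flag library as a negative control. A further library of input DNA was also a control. All 4 libraries share the transgene and the virus, so none shows Gata6 at its normal level or cells without the truncated Lef1. The cells grew on irradiated mouse 3T3-J2 fibroblasts. The peak list is a single overlap list, read from its name as that of both Gata6 libraries together. No library is named in it, and it has no value per library. Read depth, peak height and the spread between libraries are thus unknown for every peak below, and the Flag and input libraries could not be set beside them.

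Gata6 is a zinc-finger transcription factor that binds GATA motifs in DNA. Dkk3 encodes a secreted glycoprotein of the Dickkopf family. The founding member of that family, Dkk1, blocks Wnt signalling by binding Lrp5 and Lrp6 co-receptors, whereas Dkk3 is a divergent member whose action on Wnt signalling depends on the cell. Lef1 is a nuclear effector of the same pathway, and loss of its N-terminus removes the part that binds beta-catenin. In a RefSeq gene table of assembly GRCm38.p6, the protein-coding genes before Dkk3 on the chromosome were, in order, Mrvi1, Ctr9, Eif4g2, Galnt18 and Usp47, and those after it were Mical2, Micalcl, Parva, Tead1 and Rassf10. Usp47 encodes a deubiquitinating enzyme and Mical2 an actin-oxidising enzyme. Parva encodes alpha-parvin of integrin adhesions, and Tead1 encodes a DNA-binding partner of the Hippo effectors Yap and Taz. That table belongs to another build than the peaks. It gives names and order only, and no peak was assigned to any of these neighbours.

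The 5 peaks in the Dkk3 interval formed 1 compact group. The first lay at chr7:119279052-119279217 and was 166 bp wide. The second, at chr7:119281839-119281975, was 137 bp wide. The third, at chr7:119284385-119284545, was 161 bp wide. In these 3 the midpoints followed each other at steps of 2.77 and 2.56 kb. The fourth peak, at chr7:119287557-119287663, was the narrowest of the group at 107 bp. It was followed by the last, at chr7:119288117-119288251, which was 135 bp wide. The step from the third to the fourth midpoint was 3.15 kb, and that to the last was 0.574 kb, with 453 bp of unlisted sequence between the 2 intervals. The group thus consisted of 3 spaced peaks and a close pair. It spanned 9.20 kb, of which the listed intervals covered 706 bp or 7.67%.

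No other listed peak lay close to the group. The nearest listed peak before it lay 52.8 kb away between midpoints, and the nearest after it 37.8 kb away. Gaps of this size were not particular to the group. The median gap between neighbouring midpoints was 43.9 kb elsewhere on chromosome 7. In the window, 7 of 38 gaps were longer than 50 kb. The bounds of the gene are rounded, but the group began 19.1 kb inside the lower bound and ended 11.7 kb inside the upper one. The next peaks on either side were 33.6 kb below and 25.9 kb above those bounds. An annotation of build mm9 was not used here, so whether a peak of the group lies in an exon, an intron or at the start of the gene is not given.

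**Figure D1:**
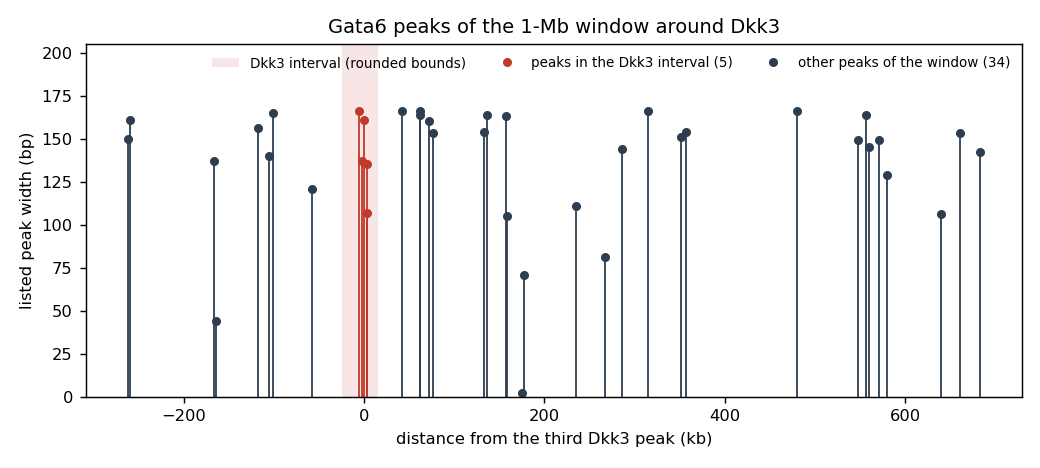
Width in bp of each listed peak (vertical axis) against its distance in kb from the third peak of the Dkk3 interval (horizontal axis), with the 5 peaks of the interval in red and the other 34 of the window in dark blue. The shaded band is the rounded Dkk3 interval, and the 5 red peaks stand between gaps of 52.8 and 37.8 kb.

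Within the rounded interval the density was 12.5 peaks per 100 kb, against 3.54 per 100 kb in the rest of the window, a ratio of 3.53. The ratio depends on the rounded bounds and was 2.30 with the interval widened by 10 kb on each side. The rest of chromosome 7 held 0.498 peaks per 100 kb of the span of its peaks. The remainder of the window was therefore itself 7.11 times as dense as the rest of the chromosome, and the Dkk3 interval 25.1 times. The interval makes up 4% of the window's length and held 12.8% of its peaks, a share that the choice of the window fixed. The other 34 peaks carry most of the window's count.

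A count of 5 peaks in 40 kb was uncommon in the list but not particular to Dkk3. Among stretches of 40 kb that each start at a listed peak, 283 (2.33%) held 5 or more peaks, 81 held more than 5, and the fullest held 10. Stretches can overlap, so the same peaks may be counted in several of them, and these are not counts of separate places. In the window itself 2 further such stretches outside the Dkk3 interval, from 119325875 to 119361006 and from 119832417 to 119864375, also held 5. Groups of 5 with short steps were also few, but the window was chosen in part for such a group. The presence of 1 at Dkk3 is therefore no result. Only 15 of all listed peaks (0.124%) belonged to groups of 5 or more peaks with each midpoint within 5 kb of the next, in 3 groups.

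The Dkk3 group was the shortest of these 3 by a small margin. It spanned 9.20 kb, against 9.36 kb for a group on chromosome 2 from 167656753 to 167666115 and 10.6 kb for a group on chromosome 11 from 16690195 to 16700830. Steps between midpoints were 0.574 to 3.15 kb in the Dkk3 group, 1.09 to 4.52 kb on chromosome 2 and 0.567 to 4.64 kb on chromosome 11. Widths ran from 107 to 166 bp, from 44 to 164 bp and from 112 to 153 bp in the same order of groups. The surroundings differed more: the 1-Mb window of the Dkk3 group held 39 peaks, that of the chromosome 2 group 24, and that of the chromosome 11 group 13.

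**Figure D2:**
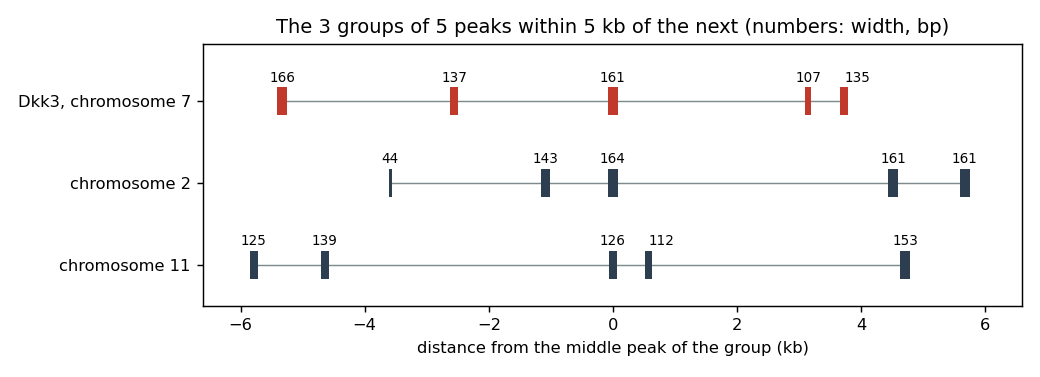
Position of each listed peak in kb from the middle peak of its group (horizontal axis) for the 3 groups of 5 peaks, with the Dkk3 group on top. Bars are drawn to scale and the number over each is its width in bp. The Dkk3 group spans 9.20 kb and ends in a pair of peaks 0.574 kb apart.

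Over the whole window, 18 of the 39 peaks came in close pairs, 5 formed the Dkk3 group and 16 had no other peak within 5 kb. Of the 39 peaks, 23 had another listed midpoint within 5 kb, or 59.0%, against 23.2% of all listed peaks. The share was 5 of 5 in the Dkk3 interval and 18 of 34 (52.9%) in the rest of the window, against 195 of 736 (26.5%) in the rest of chromosome 7. The median distance to the nearest peak was 2.56 kb in the Dkk3 interval, 4.59 kb in the rest of the window and 17.3 kb in the rest of the chromosome. A denser window brings its peaks closer together by construction, and no test was made of these distances.

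Outside Dkk3 the close peaks formed pairs alone. There were 9 groups of 2 and none of 3 or 4. The closest of the pairs lay at chr7:119345820-119345983 and chr7:119346403-119346568, with midpoints 0.584 kb apart and widths of 164 and 166 bp. This step was nearly the same as the 0.574 kb between the last pair of Dkk3 peaks, the smallest in the window. At 1 kb or less, 2 of the 5 Dkk3 peaks and 2 of the other 34 (5.88%) had a neighbour, against 6.66% in the rest of the chromosome. At this distance the rest of the window was not above the chromosome, whereas within 2 kb it had 29.4% against 13.7%.

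**Figure D3:**
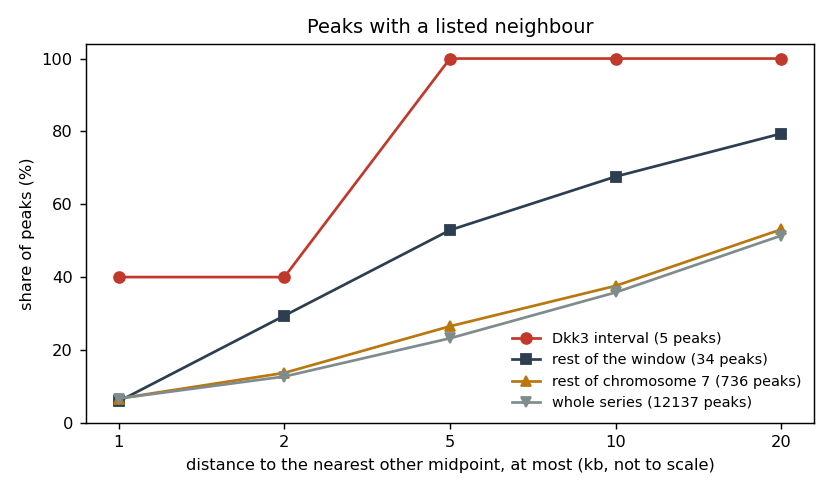
Share of peaks in percent (vertical axis) that have another listed midpoint within 1, 2, 5, 10 or 20 kb (horizontal axis, not to scale), for the Dkk3 interval, the rest of the window, the rest of chromosome 7 and all listed peaks. Within 5 kb the shares are 5 of 5 peaks, 52.9%, 26.5% and 23.2% in that order.

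Peaks were spread along the window with long gaps between them. Divided into stretches of 100 kb, the window held 2, 5, 6, 5, 6, 4, 2, 1, 5 and 3 peaks from its lower to its upper end, and every stretch held at least 1. The stretch with the Dkk3 group, from 119200001 to 119300000, held 6, as did that from 119400001 to 119500000. The median gap between neighbouring midpoints was 14.5 kb, against 43.9 kb elsewhere on chromosome 7. Of 38 gaps, 13 were 5 kb or shorter and 7 were longer than 50 kb. The longest, 123 kb, lay between the peak at chr7:119640740-119640893 and that at chr7:119764105-119764270.

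The window's bounds did not cut through a run of close peaks. Its first peak, at chr7:119022678-119022827, lay 43.8 kb from the last peak before the window, at chr7:118978911-118979036. Its last peak, at chr7:119967180-119967321, lay 83.8 kb from the next, at chr7:120050967-120051067. The neighbouring 1-Mb windows held 11 peaks before it and 16 after it. When a window of 1 Mb was allowed to start at any listed peak of the genome, the fullest held 40 and began at 118867706, and it too contained the Dkk3 group. Of 2565 windows on the fixed grid between the first and last peaks of their chromosomes, 53 (2.07%) held 20 or more. Among the other 52 of these the count ran from 20 to 32 with a median of 23, against 39 here.

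**Figure D4:**
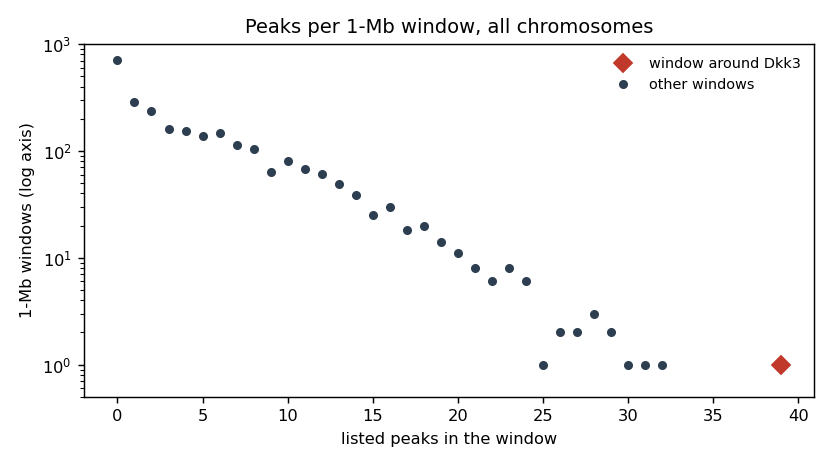
Number of 1-Mb windows (vertical log axis) by the number of listed peaks in them (horizontal axis), over all chromosomes, with the window around Dkk3 as a red diamond. Other windows reach at most 32 peaks, against 39 around Dkk3, and windows with no peak between the first and last of a chromosome are counted at 0.

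Width did not enter the choice of the window. The median width was 137 bp in the Dkk3 interval (range 107 to 166 bp), 150.5 bp in the rest of the window (2 to 166 bp) and 142 bp in the rest of chromosome 7 (3 to 166 bp). The difference of medians between the interval and the rest of the window was -13.5 bp. The means differed the other way, at 141.2 ± 23.6 bp (SD, 5 peaks) and 136.8 ± 38.0 bp (SD, 34 peaks), so no direction can be given. Peaks of 1 list are not replicates, and the ranges overlap almost entirely.

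Narrow intervals were about as frequent in the window as elsewhere. Of its 39 peaks, 4 were 83 bp wide or narrower, or 10.3% (95% Wilson interval 4.06 to 23.6%), against 9.11% of all listed peaks. None of the 5 Dkk3 peaks was, a count that allows a share up to 43.4% by the same interval. The 4 narrow ones lay at chr7:119120019-119120062 (44 bp), chr7:119459813-119459814 (2 bp), chr7:119461233-119461303 (71 bp) and chr7:119551919-119551999 (81 bp). The middle 2 were neighbours, 1.45 kb apart. The largest width in the list, 166 bp, was that of 5 of the 39 peaks, or 12.8% (95% Wilson interval 5.6 to 26.7%). Among all listed peaks the share was 6.29%, inside that interval. The first peak of the Dkk3 group was among the 5.

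The deposited name of each peak joins the chromosome to a whole number, here called the name number, and neither the labels nor the file say what it counts. Numbers of the 5 Dkk3 peaks, from the lower to the upper end of the gene, were 385, 1094, 232, 1508 and 466. As percentiles among the 775 listed peaks of chromosome 7, where a low value is a low number, these were 44.1, 84.1, 27.5, 94.6 and 50.6. The group thus joined peaks from near the 25th percentile to near the top of the range, and neighbours 0.574 kb apart had numbers of 1508 and 466. The median percentile was 50.6 in the Dkk3 interval, 44.5 in the rest of the window and 50.3 in the rest of the chromosome. The percentiles of the 5 peaks lay inside the spread of the other 34.

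Low name numbers were about as frequent in the window as elsewhere. In it, 10 of 39 peaks (25.6%) were in the lowest 25% of the numbers of the chromosome, against 24.9% of all listed peaks. None of the 5 Dkk3 peaks was among the 10, a count that allows a share up to 43.4% by the 95% Wilson interval, and the third of them lay just above the limit at percentile 27.5. Of the 5 peaks from 119300001 to 119400000, just above the gene, 4 were among the 10, with a median width of 164 bp over the 5. The numbers 73 and 105 there belonged to the close pair 0.584 kb apart. The 3 lowest numbers of the window were 43, at chr7:119599165-119599330, 49, at chr7:119441746-119441908, and 73, at chr7:119345820-119345983, with widths of 166, 163 and 164 bp. The 100-kb stretch was singled out after its values were seen. At the other end, 13 of the 39 peaks (33.3%) were in the highest 25% of the numbers, against 25.1% of all listed peaks. The 13 included 2 of the 5 Dkk3 peaks, and no test was made of this share.

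Each Dkk3 peak came from a different ascending series of numbers. The listed peaks of chromosome 7 were sorted by number, and a new series was begun wherever position fell, which divided the 775 peaks into 73 series. The median series held 4 listed peaks, 36 held 5 or more, and those at low numbers were short. Of the numbers up to the highest listed, 39.0% were listed, so the count of 73 depends on this rule. The 39 peaks of the window belonged to 26 of these series, and the 5 Dkk3 peaks to 5. Different series were not particular to Dkk3. Of the 9 close pairs elsewhere in the window, only that with numbers 1890 and 1891 shared a series. Of the 5 Dkk3 peaks, 4 shared their series with other peaks of the window. The first, number 385, was followed by 386 at chr7:119325875-119326040, 387 at chr7:119443194-119443298 and 388 at chr7:119635447-119635597. The second, number 1094, was preceded by 1092 at chr7:119166849-119167004 and 1093 at chr7:119226292-119226412. The third, number 232, was preceded by 231 at the first peak of the window, 262 kb away. The fourth, number 1508, was followed in its series by 1512, 1513 and 1515, all in the window. The last, number 466, had no partner of its series in the window.

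**Figure D5:**
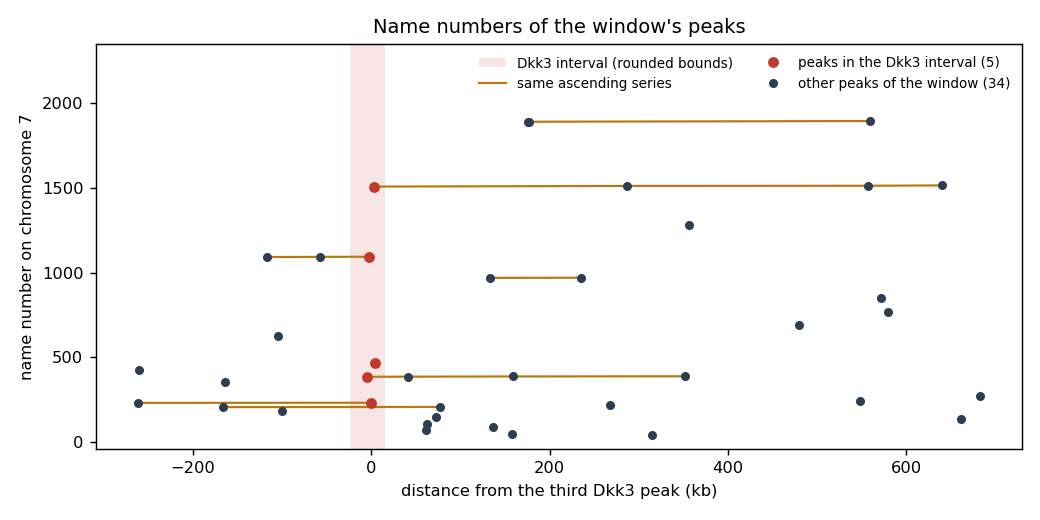
Name number of each peak of the window (vertical axis) against its distance in kb from the third Dkk3 peak (horizontal axis), with lines joining peaks of the same ascending series. The 5 Dkk3 peaks, in red, carry numbers from 232 to 1508 and each belongs to a different series.

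In the window 13 pairs of peaks followed each other in number among the listed peaks, with the higher number further along the chromosome. Their midpoints lay 1.45 to 382.6 kb apart. Only the peaks numbered 1890 and 1891 had no other listed peak between them. In 10 of the 13 pairs the numbers were consecutive, and in the other 3 a total of 7 numbers lay between them that occur in no listed name. In the other 52 windows with 20 or more peaks there were 1 to 12 such pairs. Per peak the figure was 0.333 around Dkk3, against a median of 0.25 there, and 7 of the 52 were higher. A fuller window tends to hold more peaks of each series by construction, also per peak. The window around Dkk3 held 39 peaks, against a median of 23 in the others. If numbers run along position within a series, at least 7 and at most 90 unlisted numbers belong to the window. The share of the window's numbers up to 1985 that were listed then lies between 30.2 and 84.8%, against 39.0% over chromosome 7. Unlisted numbers above 1985 could not be counted and would lower these shares. The bounds are too wide to set the window apart from the chromosome.

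A denser window brings its peaks closer together by construction. The Dkk3 window was chosen for its count of 39 peaks, against 20 to 32 in the other 52 full windows. Set beside these 52, the Dkk3 window stood near the edge of the range in closeness. Its 59.0% of peaks with a neighbour within 5 kb was exceeded in 1 of them, on chromosome 19 from 47000001 to 48000000 (59.3% of 27 peaks), and their median was 34.8%. Its median distance of 4.13 kb to the nearest peak was undercut in 3 of the 52, which ran from 2.50 to 26.3 kb. Its median width of 150 bp was exceeded in 7, with a range of 117.5 to 158 bp. Its share of narrow peaks, 10.3%, was exceeded in 13, with a range of 0 to 25%. Its median number percentile of 44.5 was near the middle, with a range of 25.1 to 66.1 and a median of 45.1 in the others. Neither widths nor name numbers placed the window apart from them.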

How the data were processed

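Gata6 binding was measured by ChIP-seq, and 1 overlap list of 12137 peaks for the whole series was analysed. Per the submitters' processing notes, BWA, HOMER and mouse build mm9 were used, without versions or roles. No source used here gives the peak-calling threshold, the intersected lists or the role of the controls. The deposited score column is 0 in every row, so it carries no peak strength. Coordinates are given 1-based. Peaks were placed by midpoint, widths are those of the listed intervals, and name numbers were ranked within a chromosome. Python 3.11.15, NumPy 2.4.6, pandas 2.3.3, SciPy 1.17.1 and matplotlib 3.10.9 were used. The code for grouping of neighbours and ascending series was checked on simulated data with long series and every number listed. Lists with missing numbers, as here, were not simulated. Shares that do not rest on position carry 95% Wilson intervals where given, for counting error only. Depth is unknown.

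The members, the lists and the measures were chosen with earlier results of these data known. Peaks share libraries and are no replicates, and the choice of the window used their positions, so no test was run. The bounds of Dkk3 are rounded. Peaks described singly were those in the Dkk3 interval, the 3 lowest name numbers, the closest pair, the widest and narrowest, the first and last, and groups of 3 or more. The other peaks given by position were chosen after their values were seen. No sequence is printed, and no genome of build mm9 was used here. Alternatives varied the gene bounds, neighbour distance, width limit, peak position and merging.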

Additional observations from a re-analysis of the deposited data

How the results depend on the processing

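No paired analysis was possible because the list holds no value per replicate, and no library could be left out. Of 32 alternative values for 7 results, 27 stayed within set limits. These were the 95% Wilson interval of a share and 1.5 times a count or a density ratio. For differences of medians the limit was 1 SD over the window's peaks without a change of sign. That SD was 36.3 bp for width and 31.7 for percentile, above the differences of -13.5 bp and 6.13 themselves. A difference could thus hardly leave this limit except by a change of sign. Gene bounds moved by 5 or 10 kb kept all 5 peaks in Dkk3. The group lies at least 11.7 kb inside the bounds and the next listed peaks at least 25.9 kb outside them. Such moves therefore could not change the count or the differences in width and percentile. With them the density ratio of 3.53 ran from 2.30, with bounds widened by 10 kb, to 4.76, since the same peaks are divided by another length. The share of window peaks with a neighbour within 5 kb, 59.0%, was 10.3% within 1 kb, 30.8% within 2 kb and 82.1% within 20 kb, where the share of all listed peaks was 6.66, 12.7 and 51.4%. The difference in width between Dkk3 and the rest of the window, -13.5 bp for medians, reversed to 4.38 bp for means, and the cause was not tested. With peaks wider than 83 bp alone the medians differed by -16 bp. With peaks within 1 kb counted as 1, the window held 37 and Dkk3 held 4. How far sequencing depth shaped the list is unknown, since it holds no read counts.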
